A study of Caenorhabditis elegans with 6 samples.

Results

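The precuticle matrix proteins described here are the products of 5 Caenorhabditis elegans genes, noah-1, noah-2, fbn-1, let-653 and sym-1. Their probe sets were chosen by gene symbol, taking each probe set annotated to 1 of these genes alone. This gave 8 probe sets for 5 genes, out of 22548 probe sets tested and 17118 genes measured. The arrays were single-colour Affymetrix arrays, 3 from larvae fed nhr-23 double-stranded RNA and 3 from control larvae, all of strain N2 at the L2 stage. Synchronized L1 larvae had been fed HT115 bacteria for 21 hours at 20 C, and whole larvae were harvested. The bacteria carried, for the RNAi group, the L4440 vector with an insert from the ligand-binding domain of nhr-23, and, for the control group, L4440 with no insert. The samples are whole populations of larvae, so fewer cells of a type and less RNA per cell cannot be told apart. The titles call the 3 samples of each group biological replicates, and nothing says that they were grown separately, so a p-value measures only how these samples vary, which may be technical.

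Epidermal cells of the worm build a new cuticle under the old one before each molt. A transient layer, the precuticle, is laid down first on the apical surface, helps to shape the collagen cuticle that follows, and is then removed or replaced. Many of its proteins carry a zona pellucida domain, a module with which secreted proteins assemble into filaments. NOAH-1, NOAH-2, FBN-1 and LET-653 have such a domain, while SYM-1 is a secreted protein with leucine-rich repeats. Transcripts of many precuticle and cuticle genes are known to be made in pulses, once in each larval stage. NHR-23, the target of the RNAi, is a nuclear hormone receptor required for molting.

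For nhr-23 itself, 1 probe set was lower and the other higher in the arrays labelled RNAi. Probe set 175831_s_at read 7.67, 7.47 and 7.52 log2 units in RNAi replicates 1, 2 and 3, against 8.27, 8.12 and 7.74 in control replicates 1, 2 and 3. Probe set 194130_s_at read 8.76, 9.61 and 8.76 in the RNAi replicates, against 6.60, 6.56 and 5.80 in the controls. The second one goes against the label unless it reads the fed RNA, which was not tested, so the RNAi arrays are called RNAi-labelled below and directions follow that label. The 6 arrays had medians of 5.12 to 5.18 and correlated with each other at 0.985 to 0.997. By limma with Benjamini-Hochberg adjustment over all probe sets, 0% of probe sets (0 of 22548) had an adjusted p under 0.05 between the groups, and 3.69% (833) had an unadjusted p under 0.05. With the replicate number as a block 0.00887% passed (2 of 22548). Among them was nhr-23 194130_s_at, higher in RNAi-labelled arrays (log2 difference 2.72, limma with the replicate block, adjusted p = 0.037).

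NOAH-1 and NOAH-2 are large transmembrane proteins of the apical matrix, related to NompA of Drosophila, and both are needed for the embryo to elongate and for molting. The brighter noah-1 probe set, 174240_at, read 11.92, 12.12 and 11.17 log2 units in RNAi-labelled replicates 1, 2 and 3, and 12.43, 12.25 and 11.53 in the controls. Replicate 3 was the lowest array of both groups, and the groups overlapped. The mean was 11.73 ± 0.50 in RNAi-labelled arrays and 12.07 ± 0.48 in controls (SD, n = 3 each), a log2 difference of -0.34 (SE 0.31, limma adjusted p = 0.993). Its mean level was at percentile 99.0 of all probe sets tested.

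The second noah-1 probe set, 183775_at, read 11.38, 11.09 and 9.83 in RNAi-labelled replicates 1, 2 and 3, and 11.92, 11.68 and 10.09 in the controls. The single noah-2 probe set, 181136_s_at, read 11.41, 11.16 and 9.83 in RNAi-labelled replicates, and 11.88, 11.69 and 10.09 in the controls. Replicate 3 stood apart more widely here than in the brighter noah-1 probe set, and it was the lowest array of both groups in both probe sets. The log2 difference between groups was -0.47 (SE 0.58, limma adjusted p = 0.993) for 183775_at. For noah-2 it was -0.42 (SE 0.58, limma adjusted p = 0.993), from means of 10.80 ± 0.85 in RNAi-labelled arrays and 11.22 ± 0.98 in controls (SD, n = 3 each).

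The readings of 183775_at, annotated to noah-1, followed those of noah-2 more closely than those of the other noah-1 probe set. After each probe set was centred on its own mean, 183775_at and 181136_s_at differed by at most 0.06 log2 in any array, while 183775_at and 174240_at differed by up to 0.53. Over all probe sets tested, 183775_at was the only one that lay that close to noah-2 in all 6 arrays. In replicates 1, 2 and 3, 174240_at minus 183775_at was 0.54, 1.03 and 1.34 log2 in RNAi-labelled arrays, and 0.51, 0.57 and 1.43 in controls. On Affymetrix arrays the ending _s_at marks probes that match more than one transcript. Which transcript each of the probe sets reads was not tested, so 183775_at and 181136_s_at may not be separate readings of noah-1 and noah-2. The counts of probe sets given below still include both.

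**Figure D1:**
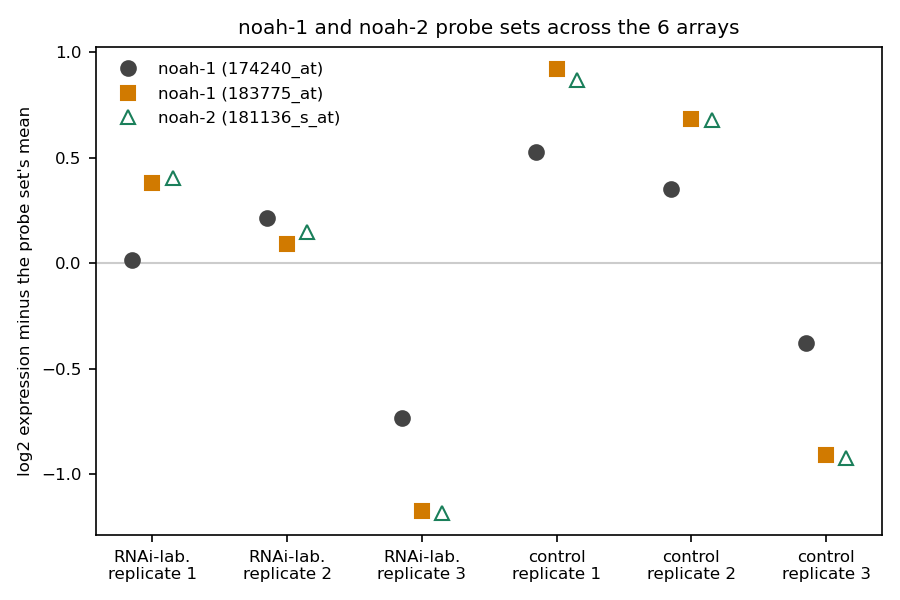
Deviation of the 2 noah-1 probe sets and the noah-2 probe set from their own mean over the 6 arrays (vertical axis, log2 units), for each RNAi-labelled and control array (horizontal axis). The symbols of 183775_at and 181136_s_at lie within 0.06 log2 of each other in every array, while 174240_at departs from them by up to 0.55.

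FBN-1 is a large fibrillin-like protein with many EGF-like repeats, and its pre-mRNA is spliced with the help of MEC-8. Probe set 181745_at read 8.85, 8.19 and 7.59 in RNAi-labelled replicates 1, 2 and 3, and 9.47, 9.21 and 7.54 in the controls. In replicates 1 and 2 the RNAi-labelled array was below its control, and in replicate 3 both arrays were near the same low value. The mean was 8.21 ± 0.63 in RNAi-labelled arrays and 8.74 ± 1.05 in controls (SD, n = 3 each), a log2 difference of -0.53 (SE 0.55, limma adjusted p = 0.993). Probe set 174252_at read 8.40, 8.12 and 7.62 in RNAi-labelled replicates, and 9.05, 8.73 and 7.97 in controls. Its groups overlapped only through control replicate 3, and its log2 difference was -0.54 (SE 0.31, limma adjusted p = 0.993), or 1.45-fold lower in RNAi-labelled arrays. The fbn-1 probe sets thus had nearly the same difference in the mean, but in the replicate 3 pair they differed, at 0.05 log2 for 181745_at and -0.35 for 174252_at.

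LET-653 is a secreted zona pellucida protein that lines tubes such as the excretory duct and also lies in the precuticle over the epidermis. Its probe set, 193058_at, read 8.78, 8.27 and 7.80 in RNAi-labelled replicates 1, 2 and 3, and 8.97, 8.61 and 7.56 in controls. Both groups held a high, a middle and a low array, in the order of the replicate numbers, and overlapped over most of their range. The mean was 8.29 ± 0.49 in RNAi-labelled arrays and 8.38 ± 0.73 in controls (SD, n = 3 each). The log2 difference of -0.10 (SE 0.40, limma adjusted p = 0.995) was the one closest to 0 of the 8 probe sets, with a 95% interval from -1.04 to 0.85.

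SYM-1 takes its name from the synthetic lethality of its mutations with those of mec-8, and it has been linked to the embryonic sheath that keeps the elongating body in shape. Its bright probe set, 193344_at, read 10.89, 10.74 and 9.42 in RNAi-labelled replicates 1, 2 and 3, and 11.38, 10.92 and 9.61 in controls. Replicate 3 was again the lowest array of both groups, and the groups overlapped. The mean was 10.35 ± 0.81 in RNAi-labelled arrays and 10.64 ± 0.92 in controls (SD, n = 3 each), a log2 difference of -0.29 (SE 0.55, limma adjusted p = 0.993). The other sym-1 probe set, 173273_at, read only between 3.68 and 4.23 log2 units over the 6 arrays, at percentile 31.3 of all probe sets. Its log2 difference was -0.19 (SE 0.13, limma adjusted p = 0.993). Differences of so dim a probe set are compressed by an unknown amount, since signal over background is not known here.

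**Figure D2:**
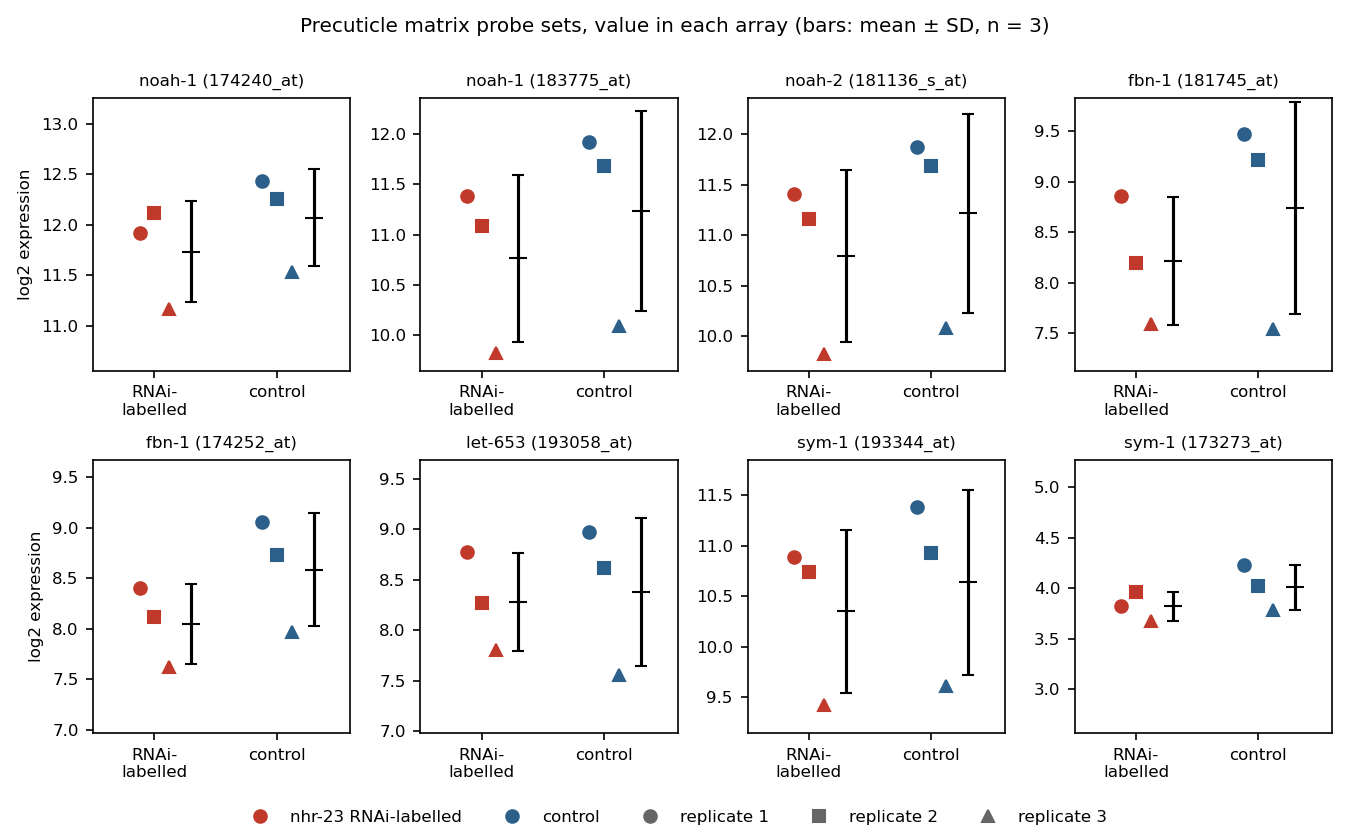
Value of each of the 8 probe sets (vertical axis, log2 expression, the same span in each panel) in the 3 RNAi-labelled and 3 control arrays, with the mean ± SD beside each group. Circles, squares and triangles are replicates 1, 2 and 3; the triangle is the lowest symbol of both groups in 8 of 8 panels.

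Set against controls, the RNAi-labelled arrays had a lower mean in 8 of 8 probe sets, where 45% of all probe sets were lower. None of the 8 passed the adjusted threshold, none had an unadjusted p under 0.05, and in 0 of 8 did the groups separate, where 3.14% of all probe sets separated with the RNAi-labelled arrays lower. The median over the 5 genes, each taken by its brightest probe set, was -0.34 log2 (1.26-fold lower), against 0.02 for all 17118 genes. For 6 of the 8 probe sets the mean was at least 1.2-fold below that of controls, as it was for 4.21% of all probe sets. By brightest probe set this held for 4 of the 5 genes, a share not computed over all genes. These values describe genes chosen with earlier results of these data known.

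The sign of the group difference changed in 4 of the 8 probe sets when 1 array was left out, in fits without a block. Such a fit keeps the same-numbered array of the other group, and replicate 3 was the lowest array of both groups in all 8. Leaving out 1 replicate 3 array alone therefore raises the mean of its group. Of the 4, noah-2, 183775_at and the bright sym-1 probe set were lower in all 3 same-number pairs, and let-653 was not. Without RNAi replicate 3 the log2 difference was 0.07 for noah-2, 0.14 for let-653, 0.18 for the bright sym-1 probe set and 0.004 for 183775_at. It was -0.05 for the brighter noah-1 probe set, and the median over the 5 genes was 0.07. Without control replicate 1 it was 0.20 for let-653 and 0.08 for the bright sym-1 probe set, and without control replicate 2 it was 0.02 for let-653. Without control replicate 3 it was more negative in 8 of 8 probe sets, from -0.30 for the dim sym-1 probe set to -1.13 for fbn-1 181745_at. With both replicate 3 arrays left out, the median over the 5 genes was -0.34, as with all arrays.

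Compared within same-number pairs, the RNAi-labelled array was the lower one in 8 of 8 probe sets for replicate 1, in 8 of 8 for replicate 2 and in 6 of 8 for replicate 3. It was lower in all 3 pairs in 6 of 8 probe sets, against 11.1% of all probe sets. The brighter noah-1 probe set differed by -0.51, -0.14 and -0.36 log2 in pairs 1, 2 and 3, and noah-2 by -0.47, -0.53 and -0.26. Fbn-1 174252_at differed by -0.65, -0.61 and -0.35, and 181745_at by -0.62, -1.02 and 0.05. Let-653 differed by -0.20, -0.34 and 0.24, so the RNAi-labelled array was the higher one in pair 3. The bright sym-1 probe set differed by -0.49, -0.18 and -0.19.

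With the replicate number as a block in the fit, none of the 8 passed over all probe sets. The smallest adjusted p was 0.247, for fbn-1 174252_at (limma with the replicate block, log2 difference -0.54, SE 0.10). At an unadjusted p under 0.05, the blocked fit held 6 of the 8, all lower, against 3.64% of all probe sets lower at that level. The 2 outside it were let-653, with a 95% interval from -0.40 to 0.20, and the dim sym-1 probe set, with one from -0.43 to 0.05. The SE of noah-2 was 0.09 with the block and 0.58 without it.

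**Figure D3:**
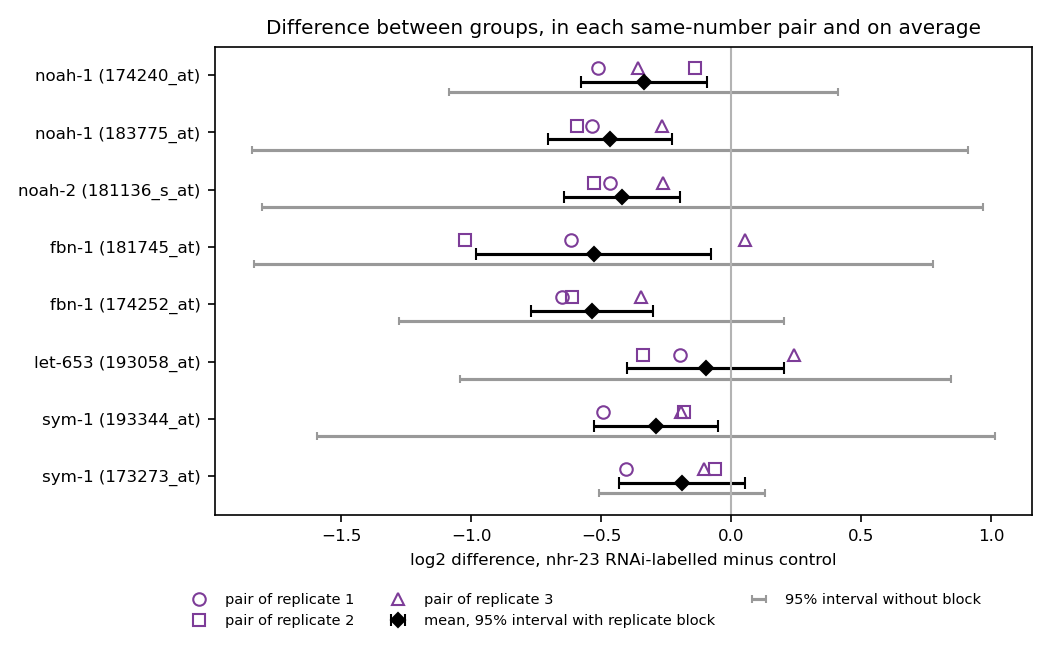
Log2 difference of RNAi-labelled minus control (horizontal axis) for each of the 8 probe sets (rows): open symbols are the 3 same-number pairs, the diamond is the mean with its 95% interval in the blocked fit, and the grey bar is the interval without the block. Open symbols lie right of 0 only in pair 3, for fbn-1 181745_at at 0.05 and let-653 at 0.24; the grey bars cross 0 in all rows.

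In 8 of 8 probe sets the difference of replicate 3 from the other replicates was larger in size than that between the groups. The share of all probe sets for which this held was not computed. In limma's F-test of the replicate number, with group in the fit, 7 of the 8 probe sets passed at an adjusted p under 0.05, against 2.24% of all probe sets (506 of 22548). The exception was the dim sym-1 probe set, with a limma adjusted p of 0.527. Replicate 3 was the lowest array of both groups in 8 of 8 probe sets, where 18.4% of all probe sets had it lowest in both. The order of levels was replicate 1 over replicate 2 over replicate 3 in both groups for 6 of 8, against 5.91% of all probe sets; the exceptions were 174240_at and 173273_at, with RNAi-labelled replicate 2 above replicate 1.

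Replicate 3 was set against the mean of replicates 1 and 2 in the same fit, a contrast chosen with earlier results known. In it 7 of 8 passed with replicate 3 lower, as did 1.89% of all probe sets. Noah-2 fell by 2.99-fold (log2 -1.58, SE 0.10, limma adjusted p = 0.0018), and 183775_at by 2.94-fold (log2 -1.56, SE 0.11, limma adjusted p = 0.00193). The bright sym-1 probe set fell by 2.76-fold (log2 -1.47, SE 0.11, limma adjusted p = 0.0021). These 3 probe sets had replicate 3 lower by over 2-fold in each group separately, as did 0.665% of all probe sets. Among the 3, noah-2 and 183775_at may not be separate readings. Smaller falls were those of let-653, 1.97-fold (limma adjusted p = 0.0136), the brighter noah-1 probe set, 1.78-fold (limma adjusted p = 0.0112), and fbn-1 174252_at, 1.72-fold (limma adjusted p = 0.0121). Fbn-1 181745_at fell by 2.58-fold with the widest error of the 8 (log2 -1.37, SE 0.20, limma adjusted p = 0.0169). The median over the 5 genes was -1.37 log2, against -0.01 for all genes.

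In the F-test the number of probe sets that passed depended on single arrays. It was 3 of 8 without RNAi replicate 1, without control replicate 1 or without control replicate 3, and 6 or 7 without any other array. In the contrast, 3 probe sets passed whichever array was left out: 181136_s_at and 183775_at, which may not be separate readings, and 193344_at. Their limma adjusted p reached 0.0211 at most. Those of let-653, the brighter noah-1 and both fbn-1 probe sets did not, with highest limma adjusted p of 0.111, 0.0834, 0.123 and 0.102, each without control replicate 1.

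Replicate 3 lay below the others by similar amounts in both groups for the brighter noah-1 probe set, at -0.85 log2 in RNAi-labelled arrays and -0.81 in controls. For fbn-1 181745_at it was -0.93 in RNAi-labelled arrays and -1.80 in controls, and for let-653 -0.72 and -1.23 in the same order. A test of that difference, added after the values were seen, found 0 of 8 past the threshold by limma. Over all probe sets it found 0 of 22548, with a smallest limma adjusted p of 0.735, so the 0 of 8 is no trait of the members. An unadjusted p under 0.05 was found in 0 of 8, a share not computed over all probe sets. The difference for fbn-1 181745_at was 0.87 log2 with a 95% interval from -0.11 to 1.85 (limma adjusted p = 0.735), and for let-653 0.51 with one from -0.36 to 1.39 (limma adjusted p = 0.772).

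**Figure D4:**
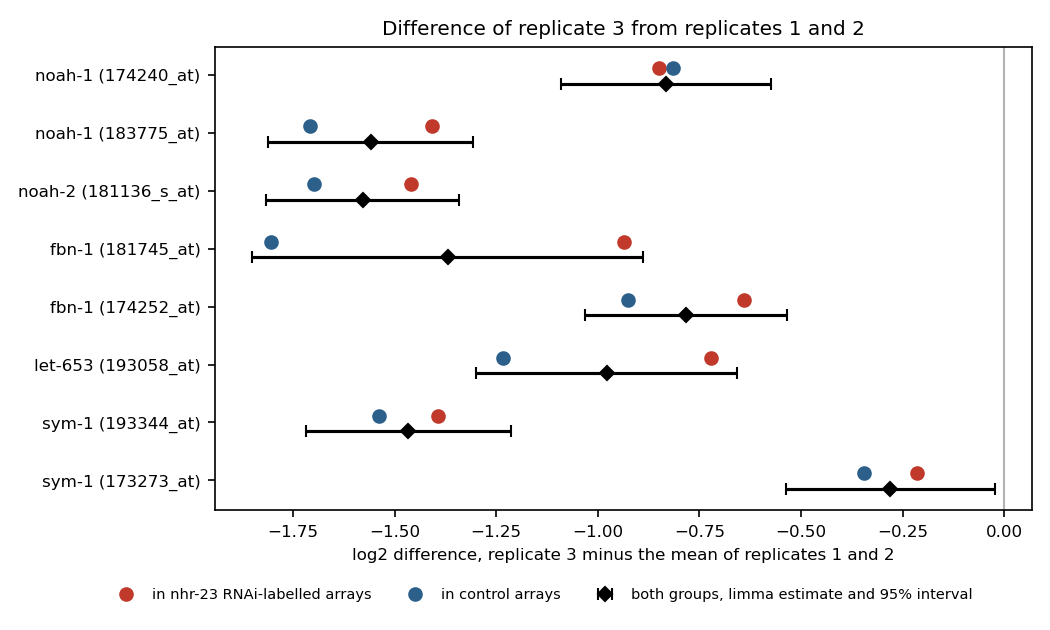
Log2 difference of replicate 3 from the mean of replicates 1 and 2 (horizontal axis) for the 8 probe sets (rows), in RNAi-labelled arrays, in control arrays, and as limma's estimate over both groups with its 95% interval. All estimates lie left of 0, from -1.58 for noah-2 to -0.28 for the dim sym-1 probe set.

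Genes with a profile like that of the members were ranked by Pearson's r over the 6 arrays with the mean of the 5 genes, among 3521 other genes whose SD over the arrays was at least 0.2 log2. The closest was egg-6 (r = 0.999), followed by C54C8.4 (r = 0.995), F47B10.9 (r = 0.995), let-4 (r = 0.995), F23H12.5 (r = 0.994) and C32D5.12 (r = 0.994). Pearson's r does not measure size. In replicate 3 F47B10.9 differed by only -0.38 log2, while the others of these genes ran from -1.21 for C32D5.12 to -1.86 for C54C8.4. LET-4 and EGG-6 are transmembrane proteins with extracellular leucine-rich repeats that act in the apical matrix of epidermal tubes. With 6 arrays and the same replicate numbers behind every gene, high values are common: 282 of the 3521 had r above 0.9. Taken singly, noah-1 was closest to T06G6.6 and cdh-12, noah-2 to egg-6 and lpr-6, fbn-1 to T12E12.6 and ztf-2, let-653 to gly-11 and rml-4, and sym-1 to mua-3 and ptr-15. Of these, mua-3 encodes a fibrillin-like transmembrane protein that anchors the epidermis to the cuticle.

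Among 20 other precuticle and apical matrix genes, 17 had a lower mean in RNAi-labelled arrays, where 45% of all probe sets were lower. In the test 0 of them passed, and their median was -0.55 log2. The list was drawn up with earlier results of these data known. It was 13 of 20 that were lower in all 3 pairs, against 11.1% of all probe sets. The 3 widest differences were those of grl-15, at -1.23 log2 (SE 0.53), glf-1, at -1.01 (SE 0.59), and grl-7, at -0.98 (SE 0.41), each with a limma adjusted p of 0.993. GRL-7 and GRL-15 are hedgehog-related proteins of the precuticle, and GLF-1 is a mutase that makes a sugar precursor for surface glycans. In grl-7 the levels were 7.45, 8.47 and 6.70 in RNAi-labelled replicates 1, 2 and 3, and 8.58, 8.71 and 8.27 in controls. With both replicate 3 arrays left out, 20 of 20 were lower, with a median of -0.47. The share of all probe sets lower in that setting was not computed.

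In the replicate 3 contrast 19 of the same 20 genes were lower, with a median of -1.26 log2. Past the threshold were 11 with replicate 3 lower, where 1.89% of all probe sets were, and 0 with it higher. Among them lpr-3, a lipocalin-related protein of the precuticle, fell by 3.36-fold (limma adjusted p = 0.00149). It read 9.57 in replicate 3 of the RNAi-labelled arrays, against 11.28 and 11.24 in replicates 1 and 2, and 10.09 in replicate 3 of the controls, against 12.01 and 11.78. Let-4 fell by 2.58-fold (limma adjusted p = 0.00193) and egg-6 by 2.49-fold (limma adjusted p = 0.00243). The other 8 were lpr-1, nas-37, wrt-10, glf-1, ptr-4, daf-6, mlt-11 and che-14, which fell by 3.21-fold for lpr-1 down to 1.63-fold for che-14, with limma adjusted p of at most 0.0241. The smallest values of the list included dyf-7, a zona pellucida protein of sensory dendrites, at -0.07 log2 (limma adjusted p = 0.856), and bli-5, a protease inhibitor, at 0.24 (limma adjusted p = 0.441).

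Families related to the members by sequence had medians closer to 0, though the zona pellucida relatives were dim on average. Of 36 measured zona pellucida relatives, the cuticlins and cuticlin-like genes with dyf-7 and ram-5, 25 had a lower mean in RNAi-labelled arrays, with a median of -0.06 log2. In replicate 3, 24 of the 36 were lower with a median of -0.08, and 1 passed, cutl-6, which fell by 2.00-fold (limma adjusted p = 0.0389). That share is near the 1.89% of all probe sets that passed with replicate 3 lower. The widest group differences among them were those of cut-2 (-0.40 log2, SE 0.43), cutl-10 (-0.38, SE 0.41) and cutl-16 (-0.28, SE 0.18). Of 18 measured leucine-rich repeat relatives of sym-1, 13 were lower in the mean, with a median of -0.07. The widest were let-4 (-0.42 log2, SE 0.51), lron-2 (-0.38, SE 0.31) and egg-6 (-0.38, SE 0.49). In replicate 3, 2 of the 18 passed with lower values, let-4 and egg-6. With a higher value 1 passed, lron-2, by 0.72 log2 (limma adjusted p = 0.0494). Over all probe sets 3.77% passed in either direction.

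Of 12 genes of epidermal attachment and embryonic elongation, 7 were lower in the mean and 5 higher, with a median of -0.01 log2. The splicing factor gene mec-8, whose mutations interact with those of sym-1 and fbn-1, differed by -0.17 log2 (SE 0.13, limma adjusted p = 0.993) between the groups and by 0.06 in replicate 3 (limma adjusted p = 0.906). The widest group differences were those of spc-1 (-0.24 log2, SE 0.09), vab-19 (0.21, SE 0.16) and mua-3 (-0.21, SE 0.43). In replicate 3, 1 of the 12 passed with a lower value and 1 with a higher one, and the median was 0.06 log2. Over all probe sets 3.77% passed in either direction. The gene that passed lower was mua-3, by 2.20-fold (limma adjusted p = 0.00324). The gene that passed higher was mup-4, by 1.16 log2 (limma adjusted p = 0.0129). MUP-4 is, like MUA-3, a transmembrane protein that attaches the epidermis to the cuticle. Over these 3 families, 0 genes passed between RNAi-labelled and control arrays.

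The mean of 6 epidermal markers was 9.60, 9.88 and 9.13 log2 units in RNAi-labelled replicates 1, 2 and 3, and 10.10, 9.92 and 9.62 in controls. It differed by -0.34 log2 between the groups and by -0.50 in replicate 3, and the median over the 6 genes differed by -0.22 and -0.16. In replicate 3 the low values were those of 2 collagen genes, dpy-7, which fell by 3.66-fold (limma adjusted p = 0.00243), and rol-6, at -1.16 log2 (limma adjusted p = 0.0936). The epidermal transcription factor genes lin-26, elt-1 and elt-3 differed there by -0.28, -0.05 and 0.24 log2, and the collagen gene dpy-13 by 0.13, and none of these 4 passed. Between the groups dpy-7 differed by -0.98 log2 (SE 0.69) and rol-6 by -0.87 (SE 0.51), while elt-3 differed by 0.23 (SE 0.14). Of 4 measured seam cell markers 1 passed in replicate 3, grd-10, which rose by 1.04 log2 (limma adjusted p = 0.0277), and the median over the 4 was 0.10. Over all probe sets 3.77% passed in either direction. List means of intestine, body wall muscle, pharynx, neuron, germline and adult-stage markers differed by between -0.15 and 0.15 log2 in replicate 3. Between the groups those of these lists and of the seam differed by between -0.21, for the pharynx, and 0.14, for the germline. The adult markers vit-2, vit-5, col-19 and bli-1 had means between 2.82 and 4.69 log2 units in both groups. The part of tissue make-up in the members' differences was not tested.

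**Figure D5:**
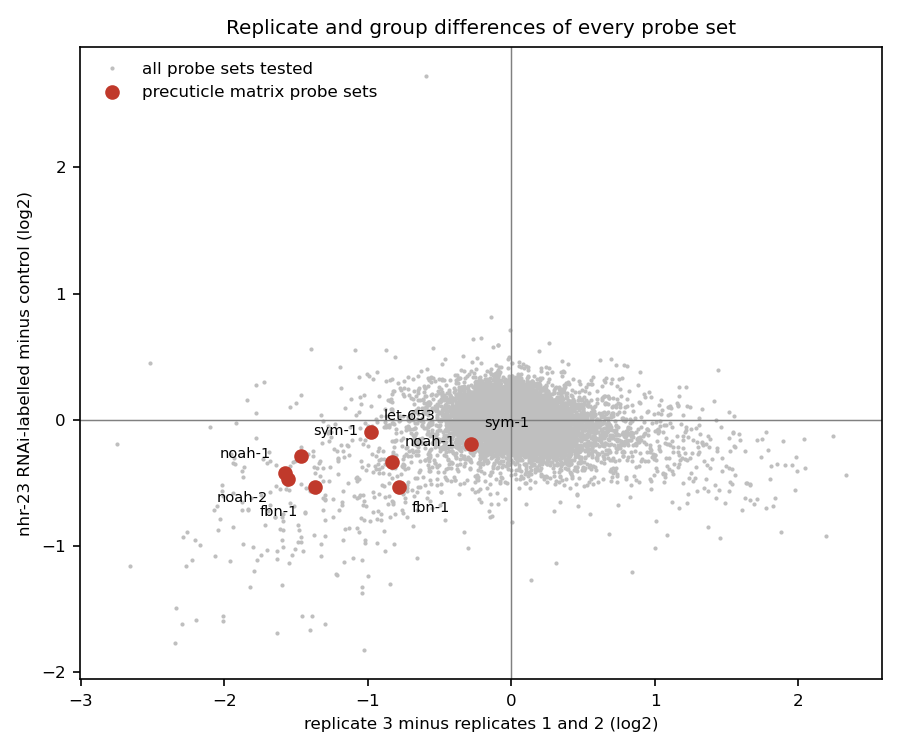
Log2 difference of replicate 3 from replicates 1 and 2 (horizontal axis) and of RNAi-labelled minus control (vertical axis) for all 22548 probe sets tested (grey) and the 8 precuticle matrix probe sets (red, labelled by gene). The red points lie at -0.28 to -1.58 on the horizontal axis and at -0.10 to -0.54 on the vertical axis.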

How the data were processed

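The authors deposited log2 expression values per probe set for 6 arrays. The submitters' processing notes name MAS5, RMA and Partek without a version or role, so background correction, summarization and normalization are otherwise not given in the sources used here. Values were used as deposited, without a filter. Of 22625 probe sets, 77 array controls were left out. The platform annotation gave 1 symbol for 20766 probe sets, of which 20701 took their symbol from the WBcel235 gene table; 887 had several symbols and 895 none. The brightest probe set stood for a gene in lists, while the shares of all probe sets set beside list counts cover every probe set. Coordinates are left out, as no source names the array's build.

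The main test was limma 3.58.1 under R 4.3.3 (lmFit, eBayes, 2-sided), with Benjamini-Hochberg adjustment over all 22548 probe sets and a threshold of 0.05. The replicate number was tested with group in the fit. Deviations from group means correlated between same-numbered arrays at 0.58, 0.167 and 0.573. The pair comparisons and the block take the numbers to pair arrays, on the values and not the labels. The same values enter those fits, so the correlations are no separate support for them. Such correlations between differently numbered arrays are not given. The main test has no block, as the labels state no pairing. Members and lists were chosen with earlier results of these data known. Named genes are the members, nhr-23, from each of the 4 gene lists the 3 widest group differences and genes past the threshold of either test, and those most like the members; mec-8, dyf-7, bli-5 and single tissue markers were named after their values were seen. Alternatives were the replicate block, quantile normalization, median centring, a filter on dim probe sets, a variance trend and leaving out arrays. The fits were also run on simulated data with noise drawn separately for each array. Same-numbered arrays shared no noise there, unlike in these data, so that run does not bear on the effect of pairing. The number of arrays limits the precision.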

Additional observations from a re-analysis of the deposited data

How the results depend on the processing

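Between RNAi-labelled and control arrays, the count of probe sets past the threshold was 0 under each setting run except the replicate block. The block gave 2, neither a member, with nhr-23 194130_s_at among them. The members' count was 0 throughout. Of 80 alternative values of single probe sets, 73 stayed below 0. Those with the replicate block equal the main values by design and could not change sign. The values above 0 all came from fits without 1 array and without a block. They were, without RNAi replicate 3, 0.0039 for 183775_at, 0.068 for noah-2, 0.14 for let-653 and 0.18 for sym-1 193344_at. Without control replicate 1 they were 0.20 for let-653 and 0.083 for sym-1, and without control replicate 2 0.018 for let-653. Without 1 array the log2 differences of these 4 probe sets ran from -1.03, -0.98, -0.51 and -0.80 upward, each lowest without control replicate 3. The members' median ran from -0.80 to 0.07 without 1 array, and was -0.40 with all probe sets of a gene averaged.

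For the replicate number, 7 of 8 probe sets passed under both normalizations, the filter (1 of the 8 filtered out) and the variance trend. Without 1 array 3 to 7 passed, and over all probe sets 79 to 1304, against 506. Those fits have 1 residual degree of freedom before shrinkage. All 64 alternative values of the replicate 3 difference stayed below 0, and 46 passed. Signal over background is not known, which limits the dim sym-1 probe set most.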
